A study of Mus musculus with 6 samples.

Results

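The 8 genes described here, *Acp5*, *Ctsk*, *Calcr*, *Ocstamp*, *Dcstamp*, *Atp6v0d2*, *Oscar* and *Nfatc1*, are commonly used to identify osteoclasts (OCs), and they were read in osteoblasts (OBs). They were found by their symbols among the 23284 genes listed for each sample, and all 8 were listed. RNA-seq of sorted OBs covered 3 samples of day 10 and 3 samples of day 14 after implantation of a collagen sponge with 2.5 μg of BMP-2 under the skin of male *Col2.3*-ECFP mice aged 12 to 16 weeks. In these mice a fragment of the type I collagen promoter drives a cyan fluorescent protein (ECFP), so that the reporter marks cells by promoter activity and not by a surface protein. Cells positive for CD45, the surface protein of blood cells, and dead cells were gated out, and ECFP+ cells were collected from the remainder. Day 10 tissue had 1 collagenase digestion and day 14 tissue had 2, and the day cannot be told apart from the digestion. Titles place the 3 later samples on day 14, while their descriptions give day 14, 15 and 16 for replicates 1, 2 and 3. Levels are FPKM, a fragment count scaled by transcript length and by sequencing depth. The scaling allows comparison between genes in principle, but *Gapdh*, which every cell uses, did not exceed 0.414 FPKM in any sample. A low listed value can therefore understate a gene, and ranks and ratios between genes here compare listed values only.

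OCs are multinucleated cells of the blood lineage that dissolve bone mineral with acid and digest bone matrix with secreted enzymes. They form when macrophage-like precursors receive CSF1 and RANKL, both of which OBs and other stromal cells can supply. RANKL signalling, with help from immune co-receptors, leads to the induction of the transcription factor NFATc1, which in turn activates genes for cell fusion, acid secretion and matrix digestion. Some of these genes are not restricted to OCs, and *Ctsk* and *Nfatc1* in particular are also transcribed in other mesenchymal and endothelial cells.

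The sorted samples were rich in transcripts of *Col1a1*, the main collagen chain of bone, at between 14151 and 34157 FPKM. The 7 OB markers of the study summed to between 15669 and 54192 FPKM, with *Col1a1* the largest term in every sample. All 7 had a lower mean on day 14, though none had an adjusted p under 0.05 from limma. *Sp7* was lower without overlap between the days (means of 55.0 and 13.9 FPKM). When replicate 2 of day 14 was omitted, a setting chosen after the data were seen, 6 of the 7 were lower without overlap. At that setting 13.2% of all genes tested were lower without overlap. *Ptprc*, which encodes CD45, was between 0.134 and 2.99 FPKM. Mapped reads, estimated from the smallest steps between the values of low genes, ran from 4530509 to 7759382 per sample. Genes that every cell uses can be listed at or near 0 in these files, since *Ppia* was listed at 0 in 5 of the 6 samples and *Gapdh* did not exceed 0.414 FPKM, so an exact 0 is given here as a listed value only. Replicate 2 of day 14 stood apart from the other day 14 samples in its markers of other cells and in its OB markers. All 7 OB markers were higher there than in replicates 1 and 3 of day 14. Omitting that sample therefore favours lower day 14 values for these same markers, and the share over all genes does not correct for this. *Alpl* was at 1300 FPKM against 273 and 186 FPKM, and *Ibsp* at 15632 FPKM against 3460 and 1293 FPKM.

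Promoter sequence is shown for the most abundant gene of the group and for one of its scarcest, because NFATc1 and the myeloid factor PU.1 are both known regulators of OC genes. Windows of 250 bases before an annotated start, from RefSeq on GRCm38.p6, were read for 4 of the 8 genes, with 7 windows in all. Capitals mark the NFAT core GGAAA and the PU.1 core GAGGAA on either strand. The motifs overlap where GAGGAA is followed by A. The *Ctsk* window is chr3:95498960-95499209 on the plus strand and the *Oscar* window is chr7:3616158-3616407 on the minus strand, both written 5′ to 3′.
Ctsk: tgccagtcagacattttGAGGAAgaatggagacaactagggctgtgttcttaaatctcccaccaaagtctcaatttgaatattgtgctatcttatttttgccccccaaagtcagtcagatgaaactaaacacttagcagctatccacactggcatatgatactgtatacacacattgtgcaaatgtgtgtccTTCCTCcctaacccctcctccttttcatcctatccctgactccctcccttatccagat
Oscar: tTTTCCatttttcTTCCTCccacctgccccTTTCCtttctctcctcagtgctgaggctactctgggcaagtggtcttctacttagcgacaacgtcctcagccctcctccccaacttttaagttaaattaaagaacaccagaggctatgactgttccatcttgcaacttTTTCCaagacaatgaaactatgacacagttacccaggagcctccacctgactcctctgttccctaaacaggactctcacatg
The *Ctsk* window held 2 matches to the PU.1 core and 0 to the NFAT core, and the *Oscar* window held 1 and 3. Of 32841 promoter windows of this length, 55.6% held the NFAT core and 23.3% held the PU.1 core, so a match is common. The AP-1 site TGANTCA, present in 6.75% of all windows, was in none of the 7 windows. These matches are descriptions of letters and say nothing about binding.

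The 8 genes fell into a high and a low set in both groups. *Ctsk* averaged 505 FPKM over the 6 samples, *Nfatc1* 40.9 and *Acp5* 27.1. The other 5 averaged 1.05 (*Atp6v0d2*), 0.709 (*Dcstamp*), 0.364 (*Oscar*), 0.349 (*Ocstamp*) and 0.168 (*Calcr*) FPKM, with the values listed at 0 counted as 0. *Ctsk* was above *Nfatc1* in all 6 samples with no overlap, and *Acp5* was likewise above *Atp6v0d2*. *Nfatc1* and *Acp5* overlapped, with *Nfatc1* higher in 5 of the 6 samples, and each neighbouring pair among the 5 low genes overlapped as well. *Ctsk* alone made up between 85.4% and 89.2% of the summed FPKM of the group in each sample, whereas the 5 low genes together made up between 0.0577% and 1.014%.

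**Figure D1:**
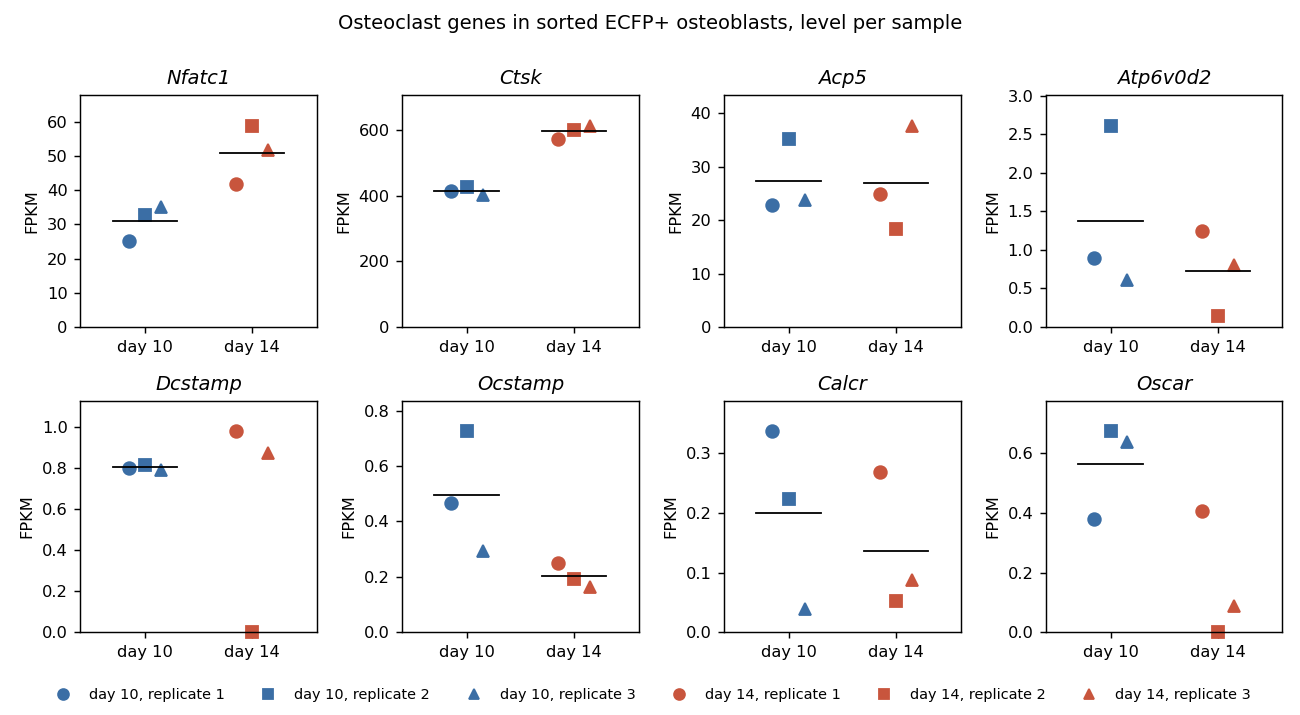
FPKM of each of the 8 genes (vertical axes, linear and from 0, with a different scale for each gene) in 3 day 10 samples (blue) and 3 day 14 samples (red). Each point is 1 sample and black lines are means, left out where a sample is listed at 0; day 14 lies fully above day 10 for *Nfatc1* and *Ctsk* and fully below for *Ocstamp*, and the groups overlap for the other 5 genes.

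Whether each OC gene differed between day 10 and day 14 was tested with limma over all 19526 genes with a mean above 0.1 FPKM, on the scale of log2(FPKM + 0.1). *Nfatc1* and *Ctsk* were higher on day 14 and *Ocstamp* was lower, each without overlap between the groups. None of the 8 had an adjusted p under 0.05 from limma, where 0.0154% of all genes tested had one, and at an unadjusted p under 0.05 there were 2, *Nfatc1* and *Ctsk*. Such an unadjusted p was found in 10.0% of all genes tested, with 5.60% higher and 4.40% lower on day 14. A lack of overlap, seen in 3 of the 8, was found in 14.3% of all genes tested, with 7.59% higher and 6.67% lower. A fold change over 2, seen in 1 of the 8 (*Oscar*, lower), was found in 13.6%, with 5.25% higher and 8.39% lower. Among genes with a mean under 1 FPKM, where 4 of the 8 lie, 21.8% were over 2-fold (14.5% lower on day 14) and 6.15% did not overlap. The labels call the samples biological replicates without saying whether they came from separate animals, so p-values measure the spread between these samples. With 3 samples against 3, an exact permutation test cannot give a p below 0.1.

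*Nfatc1* encodes the transcription factor at the top of the OC programme. Its level was 25.3, 32.7 and 35.0 FPKM in replicates 1, 2 and 3 of day 10 and 41.8, 58.9 and 51.8 FPKM in replicates 1, 2 and 3 of day 14. The lowest day 14 sample was above the highest day 10 sample. Day 10 averaged 31.0 ± 5.07 FPKM and day 14 averaged 50.9 ± 8.58 FPKM (SD, n = 3 each), which is 1.64-fold, with log2 fold change 0.71 and standard error (SE) 0.19. The adjusted p was 0.319 from limma, with an unadjusted p of 0.00505 and p = 0.1 in the two-sided exact permutation test. Its rank among all listed genes lay between 1048 and 2138 in the 6 samples. Among genes with a mean of at least 10 FPKM, 14.4% were higher on day 14 with an unadjusted p under 0.05.

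*Ctsk* encodes cathepsin K, the collagen-degrading protease that OCs secrete onto bone, and lies on chromosome 3 from 95499256 to 95509362 (mm10) with 1 annotated transcript. It read 414, 425 and 403 FPKM in the day 10 samples against 574, 600.1 and 614 FPKM in those of day 14, in the order of the replicates. The samples of each day lay close together and the days were far apart by comparison. Day 10 averaged 414 ± 11.4 FPKM and day 14 averaged 596 ± 20.1 FPKM (SD, n = 3 each), which is 1.44-fold, with log2 fold change 0.53 and SE 0.17. The adjusted p was 0.375 from limma, the unadjusted p was 0.0145 and the two-sided exact permutation test gave p = 0.1. *Ctsk* ranked between 85 and 114 of the 23284 genes in each sample, with between 2611 and 5575 estimated reads. Among genes with a mean of at least 10 FPKM, 15.7% were higher on day 14 without overlap, so the separation of *Ctsk* and *Nfatc1* was not rare at their abundance.

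*Acp5* encodes tartrate-resistant acid phosphatase (TRAP), the enzyme whose staining and promoter mark OCs, and lies on chromosome 9 from 22126727 to 22135711. Its level was 22.8, 35.1 and 23.8 FPKM on day 10 and 24.8, 18.3 and 37.7 FPKM on day 14. Its highest and its lowest value were both on day 14, in replicates 3 and 2. The means of 27.2 ± 6.84 and 26.9 ± 9.86 FPKM (SD, n = 3 each) differed by far less than the samples did (log2 fold change −0.05, SE 0.28, limma adjusted p = 0.978, two-sided exact permutation p = 1). The sign turned when either day's replicate 2 was omitted (0.14 without that of day 10 and 0.19 without that of day 14). *Ctsk* was between 12.1 and 32.8 times the level of *Acp5*, with the lowest ratio in replicate 2 of day 10 and the highest in replicate 2 of day 14, so the enzyme genes did not keep a fixed proportion across the samples.

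The fusion genes were near the limit of detection. *Dcstamp* and *Ocstamp* encode membrane proteins needed for OC precursors to fuse, and lie on chromosome 15 from 39745930 to 39760938 and on chromosome 2 from 165393760 to 165400405. *Ocstamp* read 0.467, 0.727 and 0.294 FPKM in the day 10 samples against 0.250, 0.193 and 0.162 FPKM in those of day 14. Every day 14 sample was below every day 10 sample, but these values stood for an estimated 30 reads on day 10 and 12 on day 14 in total. The means were 0.496 ± 0.218 and 0.202 ± 0.0448 FPKM (SD, n = 3 each), with a log2 fold change of −0.93 (SE 0.58, limma adjusted p = 0.651, two-sided exact permutation p = 0.1). A lack of overlap with lower day 14 values was found in 3.66% of the 8364 tested genes with a mean under 1 FPKM.

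*Dcstamp* read 0.800, 0.814 and 0.791 FPKM in the day 10 samples, 0.980 and 0.872 FPKM in replicates 1 and 3 of day 14, and was listed at 0 in replicate 2 of day 14. The other samples held between 7 and 11 estimated reads each, and 3 reads in replicate 2 of day 14 would be worth 0.286 FPKM. The log2 fold change was −0.93 (SE 0.90, limma adjusted p = 0.801), and without replicate 2 of day 14 it was 0.18. The direction for *Dcstamp* therefore rested on 1 sample.

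*Atp6v0d2* encodes the d2 subunit of the membrane part of the proton pump, which is enriched in OCs, and lies on chromosome 4 from 19876841 to 19922605. It read 0.889, 2.61 and 0.615 FPKM in the day 10 samples against 1.24, 0.147 and 0.801 FPKM in those of day 14. The highest value was in replicate 2 of day 10 and the lowest in replicate 2 of day 14, with the other 4 samples between them. The means were 1.37 ± 1.08 and 0.729 ± 0.549 FPKM (SD, n = 3 each), with a log2 fold change of −0.90 (SE 0.76, limma adjusted p = 0.770), −0.18 without replicate 2 of day 14 and −0.33 without replicate 2 of day 10. The values of *Atp6v0d2* stood for between 2 and 34 estimated reads per sample. Its widely expressed paralog *Atp6v0d1* was between 36.9 and 44.4 FPKM, or from 14.1 to 273 times the level of *Atp6v0d2* in the same sample. The ratio of 273 was in replicate 2 of day 14, where *Atp6v0d2* had 2 estimated reads and 3 reads would be worth 0.219 FPKM, so it is imprecise.

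*Calcr*, the least abundant of the 8, encodes the calcitonin receptor of mature OCs, and lies on chromosome 6 from 3685680 to 3764714. Its values were 0.338, 0.223 and 0.0393 FPKM on day 10 and 0.268, 0.0516 and 0.0867 FPKM on day 14, which corresponded to between 1 and 6 estimated reads per sample. The groups overlapped (means 0.200 ± 0.151 and 0.135 ± 0.116 FPKM, SD, n = 3 each, log2 fold change −0.31, SE 0.75, limma adjusted p = 0.942), and a difference was not detectable at this depth. Without replicate 1 of day 10 the log2 fold change was 0.043.

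*Oscar* encodes a co-stimulatory immune receptor of OCs and lies on chromosome 7 from 3609813 to 3616157. Day 10 samples read 0.379, 0.676 and 0.636 FPKM, replicates 1 and 3 of day 14 read 0.407 and 0.0877 FPKM, and *Oscar* was listed at 0 in replicate 2. Replicate 1 of day 14 overlapped with day 10, and the other 2 samples of day 14 lay below it. The estimated reads summed to 17 on day 10 and 4 on day 14. The log2 fold change of −1.62 (SE 0.74, limma adjusted p = 0.519, two-sided exact permutation p = 0.2) was −1.07 without replicate 2 of day 14. It depended on the added constant, at −0.44 with 1 and −2.91 with 0.01 in place of 0.1.

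**Figure D2:**
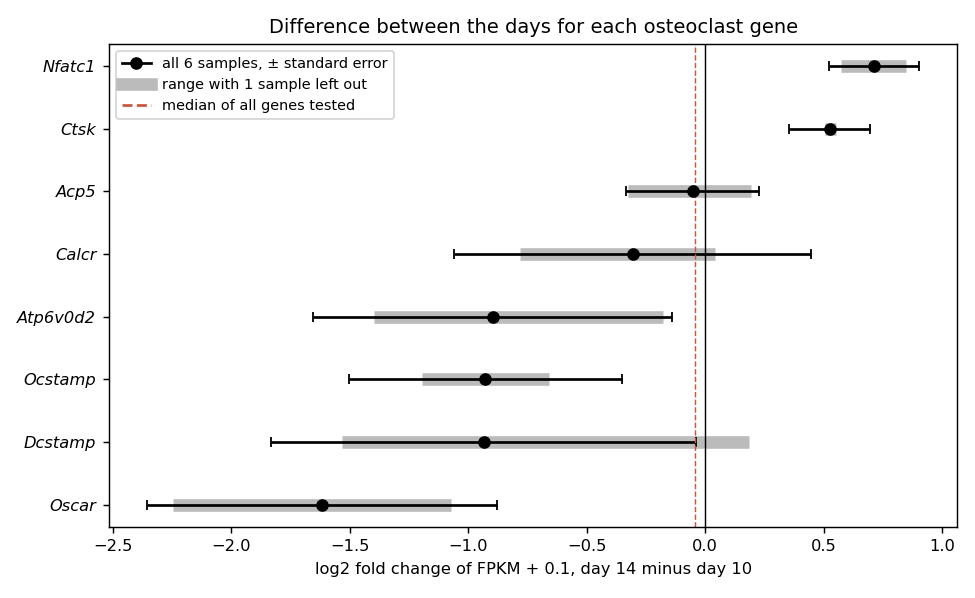
Day 14 over day 10 log2 fold change, with 0.1 added to FPKM, for each of the 8 genes (horizontal axis), with the limma standard error as bars and, in grey, the range over 6 fits that each omit 1 sample. *Nfatc1* (0.57 to 0.85) and *Ctsk* (0.50 to 0.55) stay above 0 in all fits, *Atp6v0d2*, *Ocstamp* and *Oscar* stay below 0, and *Acp5*, *Calcr* and *Dcstamp* cross 0; the dashed line is the median of all genes tested (−0.04).

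Over the group, 6 of the 8 genes had a lower mean on day 14, where 53.5% of all genes tested and 59.8% of those with a mean under 1 FPKM did. The median log2 fold change of the 8 was −0.60 against −0.04 over all genes tested. Both depended on single samples. Without replicate 2 of day 10, *Acp5* turned to 0.14 and *Atp6v0d2* moved to −0.33. Without replicate 1 of day 10, *Calcr* turned to 0.043. Without replicate 2 of day 14, 4 of the 8 genes had a lower mean, as did 48.3% of all genes tested, and the median of the 8 was 0.07 against 0.02. When samples were scaled to equal sums without the genes that exceed 1% of a sample, the median of all genes moved by −0.12, and relative to that median *Ctsk* was at 0.55 and *Nfatc1* at 0.74, compared with 0.57 and 0.76 on the deposited scale.

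Markers of blood cells differed widely between samples of the same day. The 12 myeloid markers, which include *Lyz2* and *Cd68* of macrophages, summed to between 38.7 and 137 FPKM on day 10 and between 19.01 and 640.1 FPKM on day 14. The 6 pan-leukocyte markers summed to between 3.51 and 20.1 FPKM on day 10 and between 3.03 and 68.0 FPKM on day 14. Both lists were lowest in replicate 2 and highest in replicate 3 of day 14, and *Adgre1*, *C1qa*, *C1qb* and *Ms4a7* of the myeloid list were listed at 0 in replicate 2. Fewer cells of a type and less RNA per cell cannot be told apart in such bulk samples.

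Beside these markers, the OC genes differed in where they were high. In replicate 2 of day 14, where *Ptprc* was at 0.134 FPKM and *Lyz2* at 6.35 FPKM, *Nfatc1* had its highest value (58.9 FPKM) and *Ctsk* was at 600.1 FPKM. In replicate 3 of day 14, where *Ptprc* was at 2.81 FPKM and *Lyz2* at 454 FPKM, they were at 51.8 and 614 FPKM. *Acp5*, *Dcstamp*, *Atp6v0d2* and *Oscar* had their lowest values in replicate 2 of day 14, the sample with the lowest sums of the myeloid, leukocyte and neutrophil markers. The 5 low genes summed there to 0.391 FPKM against between 2.01 and 5.05 FPKM in the others. That sample also had the fewest genes of any kind listed above 0, at 16646 against between 17630 and 19698 in the others. Its estimated depth was 5937896 reads, within the range of the other samples. In replicate 3 of day 14, where the myeloid and pan-leukocyte sums were highest, the 5 low genes summed to 2.01 FPKM. That was below the 2.87 FPKM of day 10 replicate 1 with its myeloid sum of 38.7 FPKM. The neutrophil sum was instead highest in replicate 2 of day 10 (269 FPKM). *Ocstamp* was lowest in replicate 3 of day 14 and *Calcr* in replicate 3 of day 10. Neither the part of blood cell RNA in these low values nor that of fewer detected genes was tested. Replicate 2 of day 14 had the highest sum of the 10 chondrocyte markers, at 1038 FPKM against between 73.8 and 845 FPKM in the others. *Col2a1* of cartilage was at 688 FPKM there.

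**Figure D3:**
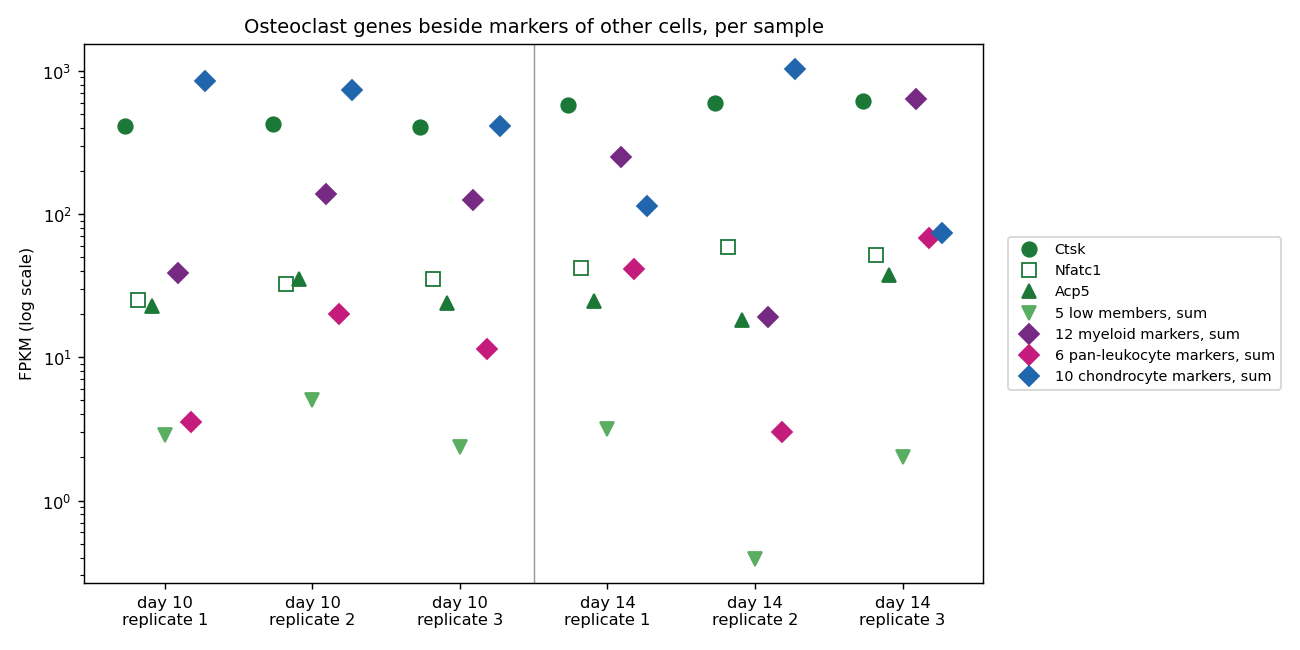
FPKM on a log scale (vertical axis) in each of the 6 samples (horizontal axis) for *Ctsk*, *Nfatc1*, *Acp5*, the sum of the 5 low OC genes and the sums of 3 marker lists; each point is 1 sample, shifted sideways for visibility. In replicate 2 of day 14 the myeloid sum is at its lowest (19.01 FPKM) and the sum of the low OC genes is at its lowest (0.391 FPKM), while *Ctsk* and *Nfatc1* stay at 600.1 and 58.9 FPKM.

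The wider OC programme was read from 20 further genes for its receptors, acid secretion and signalling. Of these, *Siglec15* was listed at 0 in all 6 samples and 19 were tested. Among the 19, 11 had a higher and 8 a lower mean on day 14, 3 were higher without overlap (*Clcn7*, *Ostm1* and *Mitf*), none was lower without overlap, and 1 (*Snx10*) had an unadjusted p under 0.05, with 0 adjusted p under 0.05 from limma. Over all genes tested, 7.59% were higher without overlap and 5.60% were higher with an unadjusted p under 0.05. The median log2 fold change was 0.15. Without replicate 2 of day 14, a setting chosen after the data were seen, 8 of the 19 did not overlap and 6 had such an unadjusted p, all of them higher on day 14. At that setting 15.3% of all genes were higher without overlap and 7.01% were higher with such a p, while 9 of the 12 myeloid and 5 of the 6 pan-leukocyte markers were higher without overlap as well. In the omitted sample, 9 of the 19 genes, 10 of the 12 myeloid and 4 of the 6 pan-leukocyte markers were at their lowest. Its omission therefore favours these counts.

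Of the 19 genes, 9 had their lowest value in replicate 2 of day 14 and 10 their highest in replicate 3. *Tnfrsf11a*, the gene of the RANKL receptor RANK, read 0.508, 0.528 and 0.267 FPKM in the day 10 samples against 0.227, 0.0700 and 0.294 FPKM in those of day 14. *Csf1r*, the receptor gene for CSF1, read 4.84, 9.91 and 8.40 FPKM in the day 10 samples against 9.12, 2.48 and 16.0 FPKM in those of day 14, and *Tyrobp*, an adaptor of immune receptors that was named after its values were seen, ranged from 0.941 to 34.0 FPKM. All 3 genes were lowest in replicate 2 of day 14. *Trem2*, an immune receptor that signals through the *Tyrobp* product and was also named after its values were seen, was instead lowest in replicate 1 of day 14 (0.497 FPKM). *Itgb3*, a chain of the integrin by which OCs attach to bone, was between 3.48 and 7.82 FPKM and overlapped between the days.

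Genes for acid secretion and matrix digestion were read next. *Clcn7* and *Ostm1*, which encode the chloride transporter of the resorbing membrane and its partner, averaged 12.3 ± 0.429 FPKM on day 10 and 14.3 ± 0.578 FPKM on day 14, and 12.2 ± 1.34 and 16.2 ± 3.52 FPKM (SD, n = 3 each). *Tcirg1*, the a3 subunit of the proton pump, was between 10.1 and 13.3 FPKM in all 6 samples. *Mmp9*, a gelatinase gene typical of OCs, read 7.73, 24.7 and 19.1 FPKM in the day 10 samples against 26.0, 35.9 and 22.6 FPKM in those of day 14. Its highest value was in replicate 2 of day 14, unlike *Csf1r* and *Tyrobp*, and its groups overlapped (log2 fold change 0.84, SE 0.40, limma adjusted p = 0.536).

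**Figure D4:**
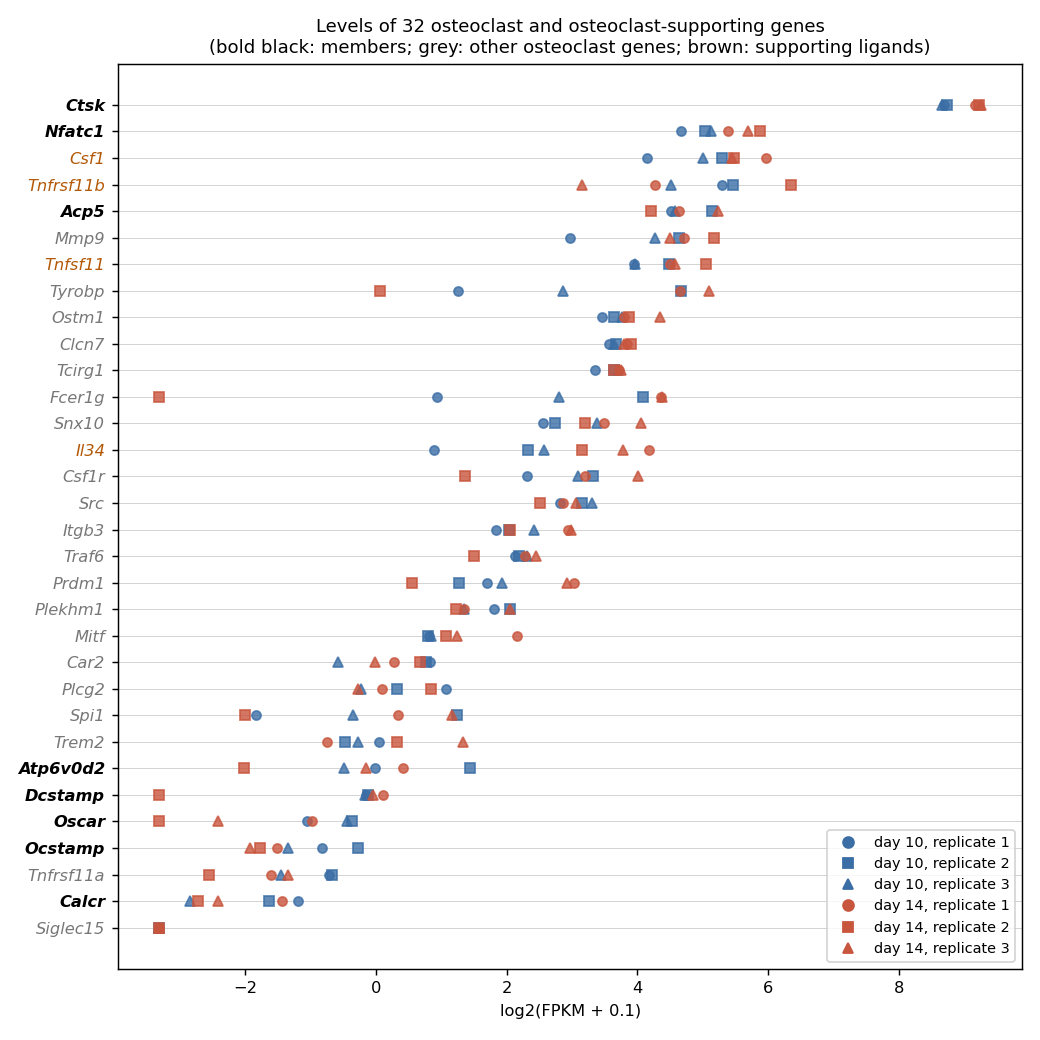
Level as log2(FPKM + 0.1) (horizontal axis) of the 8 OC genes (bold), 20 other OC genes (grey) and 4 ligand genes (brown), ordered by mean, with 1 point per sample. *Ctsk* lies apart at the top, whereas *Calcr*, *Ocstamp*, *Oscar*, *Dcstamp* and *Atp6v0d2* lie at the bottom near *Tnfrsf11a*, and *Siglec15* is listed at 0 throughout.

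Other proton pump subunits and lysosomal cathepsins gave the setting of *Atp6v0d2* and *Ctsk*. Of 16 proton pump subunits other than *Atp6v0d2* and *Tcirg1*, 13 had a higher mean on day 14, 4 did not overlap (all higher) and 4 had an unadjusted p under 0.05, with a median log2 fold change of 0.14. Among all genes with a mean of at least 10 FPKM, 15.7% were higher without overlap and 14.4% were higher with an unadjusted p under 0.05. None of the subunits was listed at 0, and their lowest value in any sample was that of *Atp6v0a1* at 6.45 FPKM. Of 8 other cathepsin genes, 6 were higher and 1 (*Ctsh*) was lower on day 14 without overlap, and 5 had an unadjusted p under 0.05, with a median log2 fold change of 0.58, beside the same 15.7% and 14.4% higher among genes of at least 10 FPKM. No gene of either list had an adjusted p under 0.05 from limma. *Ctsl* was at 203 ± 38.3 FPKM on day 10 and 354 ± 78.1 FPKM on day 14 (SD, n = 3 each, limma adjusted p = 0.340), and *Ctsb* was at 224 ± 41.1 and 365 ± 61.7 FPKM. *Ctss*, a cathepsin of antigen-presenting cells, ranged from 0.881 FPKM in replicate 2 to 82.5 FPKM in replicate 3 of day 14, whereas *Ctsk* differed by 1.53-fold between its lowest and highest sample.

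The ligands through which OBs support OCs were present in every sample. *Tnfsf11*, the gene of RANKL, read 15.3, 22.2 and 15.6 FPKM in the day 10 samples against 22.5, 33.0 and 23.7 FPKM in those of day 14 (log2 fold change 0.57, SE 0.22, limma adjusted p = 0.434). *Csf1* and *Il34*, whose products both bind the CSF1 receptor, also did not overlap and were higher on day 14 (limma adjusted p = 0.416 and 0.309). Higher values without overlap were found in 7.59% of all genes tested and in 15.7% of those with a mean of at least 10 FPKM. *Tnfrsf11b*, which encodes the RANKL decoy OPG, ranged from 8.78 to 81.4 FPKM on day 14 and overlapped with day 10. The 81.4 FPKM was in replicate 2, and the other day 14 samples (19.1 and 8.78 FPKM) lay below all 3 day 10 samples (39.2, 43.9 and 22.7 FPKM).

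The genes whose pattern over the 6 samples was closest to each OC gene were sought among 11158 genes with a mean of at least 1 FPKM, by the root mean square difference of log2(FPKM + 0.1) after centring each gene on its own mean. Among the closest to *Ctsk* were *Mr1* (0.0274) and *Tgfbr1* (0.0619), and *Nfatc1* was followed by *Tbc1d1* (0.0822), *Pcdhb14* (0.0900) and *Map4k5* (0.0907). *Acp5* was followed by *Stab1* (0.114), a gene of macrophages and endothelium, *Ddx28* (0.115) and *Tmem200b* (0.122). Within the group of 8, *Ctsk* and *Nfatc1* were the closest pair (0.215) and *Dcstamp* and *Nfatc1* the farthest (1.495). These are descriptions over 6 samples that share 2 days, and they carry no test.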

How the data were processed

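The authors called bases with Casava 1.8.2, aligned the 75-base reads (single-end) against mm10 in TopHat2 2.0.13, Bowtie2 2.2.3 and SAMtools 0.1.19, and deposited FPKM per gene from Cufflinks 2.2.1, with 1 file per sample. The gene annotation, the handling of multi-mapping reads and any scaling between samples are not given in the sources used here. In the file of day 14 replicate 2, 25 symbols turned into dates were restored by position. Depth was estimated from values up to 0.3 FPKM of 1977 genes with 1 transcript of 1500 to 8000 bases and a fragment length of 230 bases, where between 75.26% and 80.07% of estimates came within 0.1 of a whole read. Reads per gene are approximate, and floors of 3 reads cover counting error only. Positions came from GENCODE vM21.

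Samples were grouped by their titles. The comparison of the days used limma 3.58.1 in R 4.3.3 with moderated variances that follow mean level, after a log2(FPKM + 0.1) transform, and Benjamini-Hochberg adjustment over the genes with a mean above 0.1 FPKM. It was also run on simulated data with independent normal noise for each gene. Those data held no sample that stood apart and no counting steps at low levels, so they cannot vouch for the fit to these samples. All 8 genes passed this filter, which also takes genes that are high in 1 group only. A second test per gene was a two-sided exact permutation test. Alternatives were other pseudocounts, filters, scalings and variance models, the replicate number as a block, and each sample left out. The named genes are the 8 members, and from the other lists the most and least abundant genes, those that separated the days or had an unadjusted p under 0.05, and partners or paralogs of members. Older symbols (*Sfpi1* for *Spi1*, *Emr1* for *Adgre1*) were matched through RefSeq. The members and lists were chosen with earlier results of these data known. A withheld item among the genes most like a member is not reported here.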

Additional observations from a re-analysis of the deposited data

How the results depend on the processing

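*Ctsk* and *Nfatc1* stayed higher on day 14, with an unadjusted p under 0.05 from limma, under all 16 alternatives, and their log2 fold changes ran from 0.38 to 0.55 and from 0.57 to 0.85. No member had an adjusted p under 0.05 under any alternative that could be run on it. *Ocstamp*, *Oscar* and *Atp6v0d2* kept a lower mean throughout, over ranges of −1.19 to −0.31, −2.91 to −0.44 and −1.40 to −0.18. With a pseudocount of 1 and of 0.01, *Dcstamp* was at −0.22 and −1.98, *Ocstamp* at −0.31 and −1.19 and *Atp6v0d2* at −0.42 and −1.07. The sign of *Acp5* turned without day 10 replicate 2 (0.14) and without day 14 replicate 2 (0.19), within a range of −0.33 to 0.19 over samples left out. That of *Calcr* turned without day 10 replicate 1 (0.043, range −0.78 to 0.043), and that of *Dcstamp* without day 14 replicate 2 (0.18, range −1.53 to 0.18). With a mean above 1 FPKM required, *Calcr*, *Ocstamp*, *Dcstamp* and *Oscar* were not tested.

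The number of members over 2-fold was 1, but 0 with a pseudocount of 1 or a filter on a mean above 1, 4 with a pseudocount of 0.01 or with samples scaled to equal sums without genes over 1%, and between 1 and 4 with a sample left out. Members with an unadjusted p under 0.05 numbered 2, but 4 without the mean-variance trend, 3 with an ordinary linear model, and between 2 and 3 with a sample left out, 3 without day 14 replicate 1, where *Oscar* was at −2.24. Over all genes, 2665 were over 2-fold, against 514 with a pseudocount of 1, 5107 with 0.01, 845 with the filter at 1, and between 2617 and 4022 with a sample left out, 4022 without day 14 replicate 1. An adjusted p under 0.05 was found for 3 genes, for 6 with an ordinary linear model, and for between 3 and 76 with a sample left out, 76 without day 14 replicate 2. Unadjusted calls numbered 1954, and between 937 and 2559 with a sample left out, 937 without day 10 replicate 1. With the replicate number as a block, the log2 fold changes were as before, and the adjusted p from limma was 0.392 for *Ctsk* and 0.188 for *Nfatc1*, and no member's call changed. Deviations of same-numbered samples correlated with r = 0.058, −0.00584 and 0.0887 for replicates 1, 2 and 3. Those of differently numbered samples correlated with r between −0.0978 and 0.0202. Replicate 2 did not correlate best with its own number. Correlations this small cannot settle whether the numbers pair the samples. The causes of these shifts were not tested. The 5 low genes rested on between 0 and 34 estimated reads per sample, which limits what their values can show.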

Other observations

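*S100a8* and *S100a9*, calcium-binding proteins abundant in neutrophils, reached 166 and 92.1 FPKM in replicate 2 of day 10, the sample with the highest values of *Atp6v0d2*, *Ocstamp* and *Oscar*. In the other samples *S100a8* was at 3.33, 2.79, 26.1 and 22.3 FPKM and was listed at 0 in replicate 2 of day 14. *Lyz2* in replicate 2 of day 10 was at 71.9 FPKM, below its value in replicate 3 of that day (83.3 FPKM). Of the 7 neutrophil markers, 3 were highest in replicate 2 of day 10, with *Ngp* at 0.572 FPKM. *Camp* was highest in replicate 1 of day 10 (3.13 FPKM) and *Retnlg* in replicate 1 of day 14 (14.8 FPKM). *Mpo* and *Elane* were highest in replicate 2 of day 14 (0.721 and 0.237 FPKM). The 8 endothelial markers summed to between 1.56 and 3.24 FPKM on day 10 and between 4.03 and 7.12 FPKM on day 14. No single value of these 8 exceeded 1.79 FPKM (*Tek*). Of the 8, 2 were higher on day 14 without overlap, as were 7.59% of all genes tested, and 0 had an adjusted p under 0.05 from limma. The 6 lymphocyte markers summed to between 1.148 and 4.57 FPKM over all 6 samples.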
